A study of Homo sapiens with 4 samples.

Results

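The NRF2 target enzymes studied here are 10 genes: HMOX1, NQO1, TXNRD1, GCLC, GCLM, SRXN1, AKR1C1, AKR1C2, AKR1C3 and AKR1B10. They were chosen by name as textbook targets of the transcription factor NRF2, with earlier results of these data known. The whole series holds 19165 genes that could be joined to an array probe. All 10 were joined to a probe, and 9 passed the detection filter and were tested among 11268 genes. AKR1C1 did not pass. The RNA came from the established cell line MDA-LM2, which descends from MDA-MB-231 human breast cancer cells and was selected for metastasis, here in its shDicer form. All groups therefore carry the hairpin against Dicer. Each of the 4 Illumina BeadChip arrays is 1 sample, taken 48 h after transfection with siTARBP2-1, siTARBP2-2, siControl-1 or siControl-2. The design text calls the siRNAs against TARBP2 independent, and it names mock transfection as the reference where the labels name siControl. The comparison asks what changes when TARBP2, an RNA-binding partner of Dicer, is depleted in cells that carry a hairpin against Dicer.

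NRF2, encoded by NFE2L2, is a transcription factor that is held at low levels by KEAP1, which presents it to a ubiquitin ligase. Oxidants and electrophiles modify KEAP1, NRF2 then accumulates, pairs with a small MAF protein and binds antioxidant response elements in front of its target genes. BACH1 is a repressor that competes for the same elements and is released by heme, HMOX1 being its best known target. The target enzymes degrade heme, reduce quinones and carbonyls, make glutathione and keep thioredoxin and peroxiredoxins reduced.

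A pair of members for which a match to the antioxidant response element lay close to the gene start are shown, since 1 of them fell in knockdown and the other did not pass the test. The RefSeq promoter table (GRCh38.p14) held 10 windows, each from 250 bases before to 50 after a start, for 8 of the members. HMOX1 and AKR1B10 were not searched. The element was searched on both strands as TGACNNNGC. It was found in 3 of the 10 windows, those of GCLM and both TXNRD1 starts, and in 13.3% of all 35116 windows. Each stretch is written 5′ to 3′ along the strand of the match, with the match in capitals.
TXNRD1 first start, chr12:104215670-104215698, plus strand: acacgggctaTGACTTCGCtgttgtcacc
TXNRD1 second start, chr12:104286920-104286948, minus strand: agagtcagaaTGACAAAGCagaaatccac
GCLM, chr1:93909446-93909474, plus strand: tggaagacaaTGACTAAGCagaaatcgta
Within the windows, the TXNRD1 matches lay at positions -99 to -91 and -102 to -94 from their starts, and the GCLM match at -34 to -26. Another TXNRD1 match, at -8 to 1, reached past the first start and is not printed. With the looser TGANNNNGC, which contains the first motif, 6 of the 10 windows, from 5 genes, and 41.8% of all windows held a match. The matches gained in AKR1C1 and AKR1C2 lay in the same 29 bases in both genes and are shown because these paralogs share it.
AKR1C1, chr10:4963364-4963392, minus strand: ataagagcaaTGAGCTGGCaacgcccctg
AKR1C2, chr10:5003884-5003912, plus strand: ataagagcaaTGAGCTGGCaacgcccctg
No member window held the AP-1 site TGANTCA, which can lie inside an antioxidant response element, against 7.71% of all windows. A match is a description of letters in these windows, and elements farther from a start were not searched.

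The arrays were alike in their overall signal, with 39.1% to 40.8% of 47323 probes detected and a median signal of 68.1 to 71.0. TARBP2 read 6.11 and 5.79 with the siRNAs against 9.27 and 9.24 in controls on the log2 scale of normalized intensity, so the sample headings of the non-normalized table fit their labels. A second deposited table, the series matrix, carries the groups crosswise. Its columns labelled as knockdown correlated best with the control arrays of the same number (Pearson r across probes at least 0.9997), and every direction below follows the non-normalized table. All 6 markers of MDA-MB-231 type cells, among them VIM and CD44, were detected on all arrays. Of 5 epithelial or luminal markers with a probe, CDH1, ESR1, PGR and KRT20 were detected on no array, and GATA3 was detected on 3 at signals of 78.6 to 91.3. PTPRC, CD3E and CDH5, which mark blood and endothelial cells, were also detected on no array, and PECAM1 was dimly detected on all. Of the liver markers, ALB was detected on 3 arrays (78.7 to 107.8; log2 fold change 0.51, limma adjusted p = 0.0618) and APOA1 on 1. The knockdown arrays received different siRNAs, so they are separate transfections and their spread includes any difference between the siRNAs. Whether the control arrays hold separate cultures is not stated, and their spread may be technical. The p-values cover the spread between arrays alone. With 2 arrays in each group an exact permutation test cannot go below p = 0.333. Calls therefore rest on a variance model shared across genes.

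The NRF2 target enzymes did not move together. HMOX1 was higher in knockdown, AKR1C2, AKR1C3, AKR1B10 and TXNRD1 were lower, and NQO1, GCLC, GCLM and SRXN1 did not pass the test. Of the 9 tested members 1 was called higher and 4 lower, with limma and a Benjamini-Hochberg adjusted p under 0.05 over all genes. Over all 11268 genes 34.1% were called, 17.0% higher and 17.1% lower, and the members' counts are read against that. The median log2 fold change was -0.14 for the 9 members and -0.0087 for all genes, and the median absolute change was 0.52 and 0.16. The groups did not overlap for 6 of the 9 members, against 67.0% of all genes. AKR1B10 passed the detection filter only through the control arrays, so it had to be lower in knockdown to be counted. With detection required on all 4 arrays, 3 members were lower. With AKR1B10 at its bound, the median absolute change was 0.38.

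**Figure D1:**
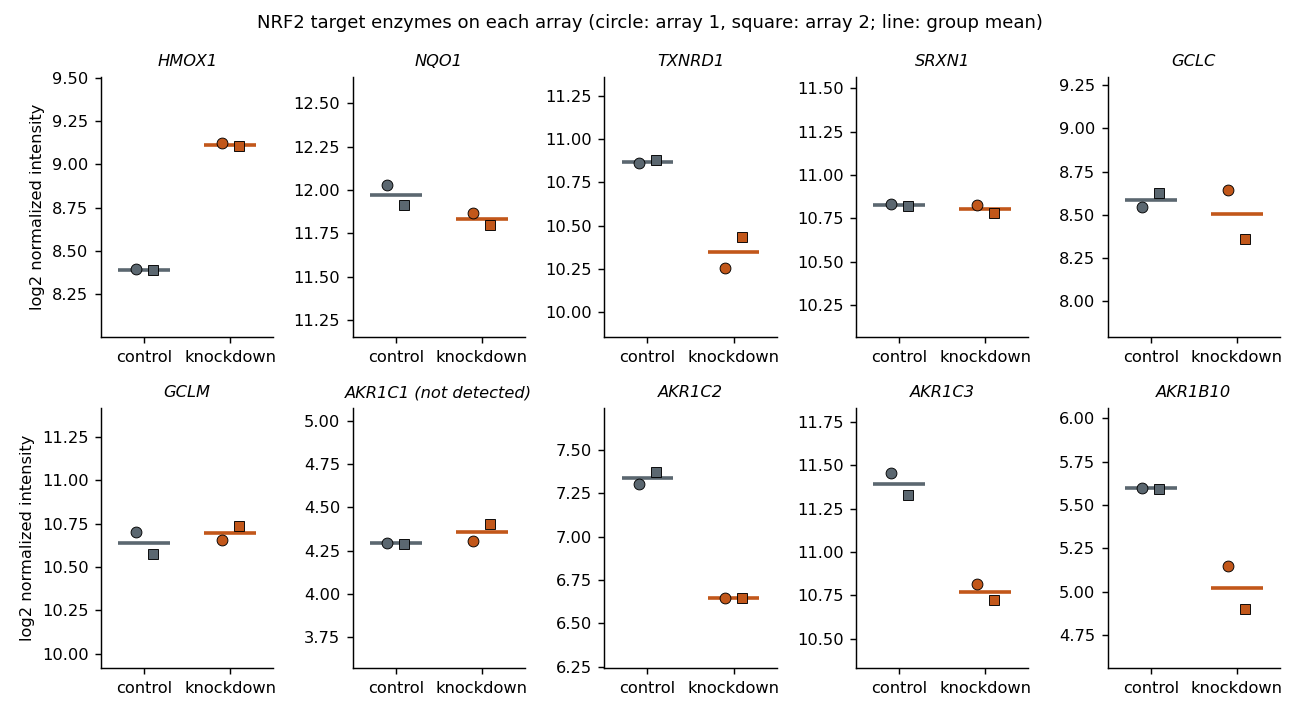
Log2 normalized intensity of each member on the 4 arrays, control in grey and TARBP2 knockdown in orange, with lines at group means. Every vertical axis spans the same range of 1.5 log2 units. HMOX1 sits higher on both knockdown arrays, AKR1C2, AKR1C3, AKR1B10 and TXNRD1 lower, and AKR1C1 was not detected on any array.

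Heme oxygenase 1, encoded by HMOX1 (GRCh38.p14, chromosome 22, 35381096 to 35394207), splits heme into biliverdin, iron and carbon monoxide. Its deposited signal was 605.2 with siTARBP2-1 and 620.4 with siTARBP2-2, against 376.0 with siControl-1 and 368.5 with siControl-2. Both knockdown arrays lay above both controls, and the arrays within a group were nearly equal. The log2 means were 9.11 ± 0.01 in knockdown and 8.39 ± 0.01 in control (SD, n = 2 each). HMOX1 rose by 0.72 ± 0.07 (standard error), or 1.65-fold (limma adjusted p = 5.14e-06). It was the 188th largest rise among the 11268 genes, and 2.87% of genes changed at least as much in either direction. In the authors' deposited table HMOX1 is marked as up-regulated with a log fold change of 0.56, while none of the other members is marked. The probe was joined to HMOX1 through that deposited value, so the value is no separate support. The mark only separates up-regulated from background, so a member that fell could not carry it.

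NQO1 (chromosome 16, 69709401 to 69726560) encodes a reductase that converts quinones to hydroquinones by a paired electron transfer. Its brighter probe read 3780.3 and 3706.6 in knockdown and 4220.1 and 3796.4 in controls. The knockdown arrays were lower, but the gap to the lower control was smaller than the gap between the controls. The log2 fold change was -0.14 with a 95% interval from -0.26 to -0.02 (limma adjusted p = 0.0750, unadjusted p = 0.0288). The dimmer probe gave 0.01 (adjusted p = 0.942 over all probes), with 163.9 and 197.9 in knockdown around 170.3 and 175.3 in controls.

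Thioredoxin reductase 1, encoded by TXNRD1 (chromosome 12, 104215779 to 104350307), is the selenoenzyme that returns cytosolic thioredoxin to its reduced form at the expense of NADPH. The probe for NM_001093771 gave signals of 1270.7 and 1482.0 in knockdown and 1891.1 and 1873.5 in controls. Both knockdown arrays were below both controls, and siTARBP2-1 was the lower of them. The log2 means were 10.35 ± 0.13 in knockdown and 10.87 ± 0.01 in control (SD, n = 2 each), a fall by 0.52 ± 0.07 (SE), or 1.44-fold (limma adjusted p = 5.55e-05). A second bright probe, for NM_182743, gave -0.54 (adjusted p = 2.29e-05 over all probes), and the intervals of the 2 probes overlapped. Over all members, 6 of 13 detected probes were called in the fit over probes, 1 higher and 5 lower, against 28.0% of 19295 probes. The lower ones include both TXNRD1 probes, which read the same gene. They also include the AKR1B10 probe, which passed the detection filter only through the control arrays.

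SRXN1 (chromosome 20, 646615 to 653200) encodes sulfiredoxin, which repairs overoxidized peroxiredoxins. The 4 signals were 1853.2, 1859.9, 1858.7 and 1802.5, knockdown first, and the groups overlapped. The log2 fold change was -0.02 with a 95% interval from -0.14 to 0.10 (limma adjusted p = 0.803). The interval leaves out a change as large as that of HMOX1 or TXNRD1 in either direction.

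GCLC (chromosome 6, 53497341 to 53545101) and GCLM (chromosome 1, 93885199 to 93909430) encode the catalytic and the modifier subunit of glutamate-cysteine ligase, which makes the first and limiting step of glutathione synthesis. The brighter GCLC probe read 445.3 with siTARBP2-1 and 386.7 with siTARBP2-2, on either side of the controls at 411.7 and 425.9. Its log2 fold change was -0.08 with a 95% interval from -0.28 to 0.11 (limma adjusted p = 0.522). The other GCLC probe was near background, detected on 3 of 4 arrays, and gave 0.27 with an interval from -0.17 to 0.71. GCLM read 1652.4 and 1808.3 in knockdown and 1701.3 and 1519.2 in controls, again with overlapping groups. Its log2 fold change was 0.06 with an interval from -0.08 to 0.19 (limma adjusted p = 0.521), and the dimmer probe gave 0.18 (adjusted p = 0.191 over all probes).

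**Figure D2:**
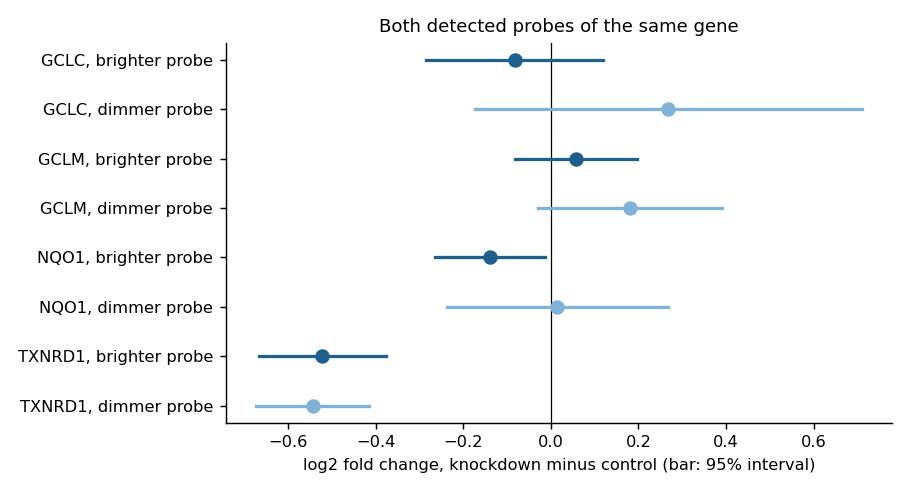
Log2 fold change, knockdown minus control, for members with a pair of detected probes, with 95% intervals from the fit over all probes. The TXNRD1 probes lie together at -0.52 and -0.54, while those of NQO1, GCLC and GCLM have intervals that overlap within each gene. The dim GCLC probe, at 0.27, has the widest interval, from -0.17 to 0.71.

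AKR1C1, AKR1C2 and AKR1C3 lie side by side on chromosome 10 and encode aldo-keto reductases that reduce steroids, prostaglandins and reactive carbonyls. They are close paralogs and probe sequences were not used here, so a probe may also read its neighbours' transcripts, which was not tested. AKR1C3 (5048781 to 5107686), which makes testosterone from androstenedione and also acts on prostaglandins, had signals of 1840.3 and 1792.1 in knockdown and 2820.5 and 2552.4 in controls. Every knockdown array was below every control. The log2 means were 10.77 ± 0.07 and 11.39 ± 0.09 (SD, n = 2 each), a fall by 0.62 ± 0.06 (SE), or 1.54-fold (limma adjusted p = 6.85e-06). AKR1C2 (4987775 to 5018000), which inactivates dihydrotestosterone, read 144.2 and 147.8 against 198.6 and 205.2 with the probe for NM_001354. The groups were again apart, and it fell by 0.69 ± 0.10 (SE), or 1.62-fold (limma adjusted p = 1.71e-04). The other AKR1C2 probe, for NM_001135241, was not detected on any array.

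AKR1C1 (4963415 to 4983283), which inactivates progesterone, had signals of 48.5 and 55.0 in knockdown and 46.1 and 48.0 in controls with its only probe. Detection p-values lay between 0.678 and 0.956, so the probe was not above background on any array and no change could be measured. AKR1B10 (chromosome 7, 134527567 to 134541412), a reductase of retinal and lipid aldehydes, read 78.9 and 72.1 in knockdown and 90.2 and 91.8 in controls. It was not above background on either knockdown array and only has a bound there. It was at least 1.30-fold lower (limma adjusted p = 0.0274), with measured log2 means of 5.02 and 5.60. The p belongs to the measured difference, and since the gene entered the test only through the controls, its direction is no separate result. The call of AKR1B10 ended without siTARBP2-2 (adjusted p = 0.167), without siControl-1 (0.0916) and without siControl-2 (0.0949). Its log2 change was -0.28 without background correction and -0.27 in the series matrix with its columns matched to the arrays, against -0.57 here. Both are smaller falls than the bound, which is -0.38 on the log2 scale and belongs to this processing alone.

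**Figure D3:**
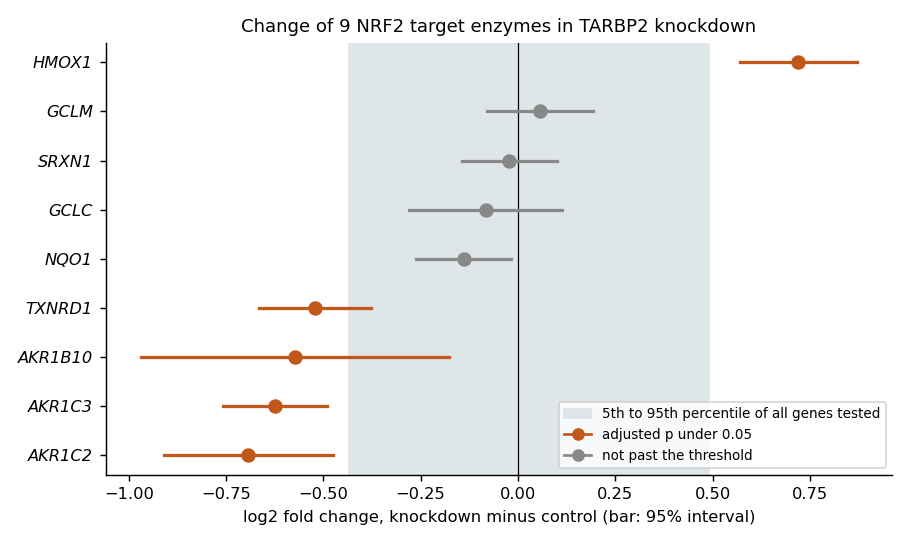
Log2 fold change of the 9 tested members with 95% intervals, in orange where the adjusted p was under 0.05. The grey band runs from the 5th to the 95th percentile of all 11268 genes, from -0.43 to 0.49. HMOX1 at 0.72 lies above it and TXNRD1, AKR1C3 and AKR1C2 below, while NQO1, GCLC, GCLM and SRXN1 lie inside. AKR1B10 is drawn at its measured -0.57, but its bound of -0.38 lies inside the band.

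The siRNAs were also set against the controls one at a time, in a fit whose spread comes from the 2 control arrays and which assumes that a lone array varies like them. Both comparisons share the controls. With siTARBP2-1, 1 member was called higher and 3 lower, where 24.8% of all genes were called, 12.5% higher and 12.3% lower. With siTARBP2-2, 1 was called higher and 4 lower, where 27.2% were called, 13.6% higher and 13.6% lower. HMOX1 gave 0.73 with siTARBP2-1 and 0.71 with siTARBP2-2, AKR1C2 gave -0.69 with both, and AKR1C3 gave -0.58 and -0.67. TXNRD1 gave -0.61 and -0.43. AKR1B10 made the fourth lower call with siTARBP2-2, and it was not above background with either siRNA. With detection required on all 4 arrays, 3 members were lower with siTARBP2-2 too.

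Compared directly, 0 of the 9 members passed between the siRNAs by limma, where 0.0177% of all genes did, 0.00887% in each direction. An unadjusted p under 0.05 was found for 2 of the 9 members and for 654 of all 11268 genes. No other tool was run on this contrast. The 2 members were GCLC, 0.28 higher with siTARBP2-1 on the log2 scale (95% interval 0.05 to 0.52), and TXNRD1, which differed by -0.18 (-0.35 to -0.01). Their adjusted p-values were 0.837 and 0.847. The difference was 0.02 for HMOX1 (interval -0.20 to 0.24) and 0.0024 for AKR1C2 (-0.33 to 0.33). The missed threshold does not show that the siRNAs acted alike.

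Of the regulators of the pathway 13 of 15 listed genes were tested, with 0 called higher and 4 lower and a median log2 fold change of -0.04. Over all genes 17.0% were called higher and 17.1% lower. NFE2L2, which encodes NRF2, read 10.90 and 11.02 in knockdown and 11.21 and 11.19 in controls on the log2 scale. Both knockdown arrays were lower, and NFE2L2 fell by 0.24 ± 0.06 (SE) (limma adjusted p = 0.00749). Its call ended without siTARBP2-1 (adjusted p = 0.0571), with median scaling (0.0581) and without a variance trend (0.0625). KEAP1, the inhibitor of NRF2, gave -0.06 (adjusted p = 0.557), and it turned to 0.0026 with median scaling. Of the small MAF partners, MAFG gave -0.25 (adjusted p = 0.0353), a call that ended without any 1 of the 4 arrays (0.0684 to 0.161), and with median scaling (0.189), no detection filter (0.129) or the mean of probes (0.0626). MAFF gave -0.02 (adjusted p = 0.872), and it turned to 0.06 with median scaling and to 0.0060 with cyclic loess. MAFK and the repressor BACH1 were not detected on any array with the probes joined here. The related factor NFE2L1 gave -0.17 and SQSTM1, an autophagy receptor that binds KEAP1, gave -0.12 (adjusted p = 0.0346 and 0.0444). The call of NFE2L1 ended without any 1 of the arrays (0.0577 to 0.220) and that of SQSTM1 without siTARBP2-1, siControl-1 or siControl-2 (0.112 to 0.164).

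Other genes of the same pathways were taken from 7 further lists. Over these and the regulators, 107 of 132 listed genes were tested, 19 were called higher and 20 lower, and the median log2 fold change was -0.01. The share called was close to that of all genes, 34.1%. The counts of each list are read against 17.0% of all genes called higher and 17.1% lower. In each list the 4 genes with the smallest p are named, and any other gene named below was chosen after its value was seen. Of the latter, GPX1, GPX3, GSR, HMOX2, TFRC and PTGR2 also lost their call under a setting that kept all 4 arrays. In these 7 lists, genes said to have risen or fallen kept their call in every alternative run. For the others the arrays whose omission ended the call are named. Of 18 such genes chosen by rule, regulators included, 16 also lost it under another setting.

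Among thioredoxin and peroxiredoxin genes 2 of 11 were called higher and 1 lower. TXNIP, an inhibitor of thioredoxin, rose by 0.39 (limma adjusted p = 7.53e-04). PRDX6 gave 0.16 and PRDX1, a substrate of sulfiredoxin, gave -0.16 (adjusted p = 0.0237 and 0.0462). The PRDX6 call ended without siTARBP2-2, siControl-1 or siControl-2 (0.0623 to 0.131), and the PRDX1 call without siTARBP2-1, where the change was -0.07, siControl-1 or siControl-2 (0.0998 to 0.362). TXNRD2, the mitochondrial thioredoxin reductase, gave 0.13 (adjusted p = 0.143). Thioredoxin itself, TXN, gave 0.04 (adjusted p = 0.635).

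Genes of glutathione synthesis and use had 3 of 23 higher and 5 lower. CHAC2, a glutathione-degrading cyclotransferase, fell by 0.74 from a control mean of 8.38 ± 0.02 to 7.63 ± 0.06 (SD, n = 2 each; limma adjusted p = 1.28e-05). The glutathione transferase GSTA4, which acts on lipid aldehydes, fell by 0.50 and GSTO1 rose by 0.31 (adjusted p = 2.26e-04 and 2.75e-04). GPX1 and GPX3, glutathione peroxidases, gave 0.16 each (adjusted p = 0.0169 and 0.0412), the first ending without siTARBP2-1, siControl-1 or siControl-2 (up to 0.0812) and the second without any 1 of the arrays (up to 0.212). GLRX2, a mitochondrial glutaredoxin, gave -0.24 (adjusted p = 0.00789), a call that ended without siTARBP2-2 or siControl-2 (0.0608 and 0.0863). SLC7A11, the cystine transporter that feeds glutathione synthesis, gave -0.69 (adjusted p = 0.0109). It was detected on 3 of the 4 arrays, and its call ended without siTARBP2-1 (-0.46, 0.110) or siControl-1 (0.0506). Glutathione reductase, GSR, gave -0.28 (adjusted p = 0.0373). This call ended in 3 of the 4 fits that left out an array, all but that without siTARBP2-2. The GSR change was -0.17 without siTARBP2-1. Its call also ended with median scaling, the mean of probes, no detection filter and no variance trend (adjusted p up to 0.674). Over the alternatives the GSR change lay between -0.39 and -0.07.

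In NADPH supply 1 of 11 genes was called higher and 1 lower. TKT, the transketolase of the pentose phosphate pathway, rose by 0.29 (limma adjusted p = 5.59e-04). IDH1 gave -0.22 (adjusted p = 0.0185), ending without siTARBP2-1 or siControl-2 (0.100 and 0.168). MTHFD2 gave 0.17 and the malic enzyme ME1 gave -0.15 (adjusted p = 0.0639 and 0.0840).

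Heme and iron genes, the surroundings of HMOX1, had 1 of 11 higher and 5 lower. None of these calls held in every alternative. The iron exporter SLC40A1 gave -0.35, the heme exporter FLVCR1 -0.56, the ferritin light chain FTL -0.14 and the mitochondrial transporter ABCB6 -0.22 (limma adjusted p = 0.0121, 0.0132, 0.0186 and 0.0251). Those of SLC40A1 and FLVCR1 ended without siTARBP2-2 or siControl-1 (up to 0.118 and 0.177), with FLVCR1 at -0.32 without siControl-1. That of FTL ended without siTARBP2-1 or siControl-2 (0.0561 and 0.117), and that of ABCB6 without any 1 of the 4 arrays (0.0559 to 0.105). HMOX2, the constitutive heme oxygenase, gave 0.34 (adjusted p = 0.0411), with 8.17 with siTARBP2-2 against 7.73 with siTARBP2-1. Its call ended without siTARBP2-2, where the change was 0.12 (0.473), siControl-1 or siControl-2. The transferrin receptor TFRC gave -0.13 (adjusted p = 0.0443), ending without any 1 of the arrays (0.0754 to 0.230).

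Other carbonyl and quinone reducing enzymes had 5 of 19 higher and 3 lower. ALDH3A1, an aldehyde dehydrogenase of aromatic and fatty aldehydes, read 5.88 and 6.07 in knockdown and 7.13 and 6.85 in controls on the log2 scale. It fell by 1.02 ± 0.13 (SE), or 2.02-fold (limma adjusted p = 7.12e-05), the 38th largest fall of all genes. Its deposited signals were low, 102.7 and 112.8 in knockdown and 179.9 and 157 in controls. The size of the ALDH3A1 change depended on the processing, from -1.15 to -0.65 over the alternatives. ALDH1A3, which makes retinoic acid, rose by 0.53 and the cytochrome b5 reductase CYB5R3 by 0.27 (adjusted p = 3.02e-05 and 0.00102). AKR1C4, the fourth gene of the AKR1C cluster and known from liver, fell by 0.44 (adjusted p = 4.59e-04), and whether its probe reads the AKR1C3 transcript was not tested. AKR1B1, the aldose reductase and a relative of AKR1B10, rose by 0.29 (adjusted p = 0.00112), so the called aldo-keto reductases did not all fall. The other tested aldo-keto reductases of this list were not called. They were AKR1A1 at 0.15, AKR7A2 at -0.14, AKR7A3 at -0.0028 and AKR1D1 at 0.00086. ALDH1B1 rose by 0.33 and CBR4 fell by 0.32 (adjusted p = 0.00272 and 0.00333). PTGR2, a prostaglandin reductase, gave 0.35 (adjusted p = 0.00668), ending without siControl-2 (0.0835) and with the mean of probes (0.197).

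**Figure D4:**
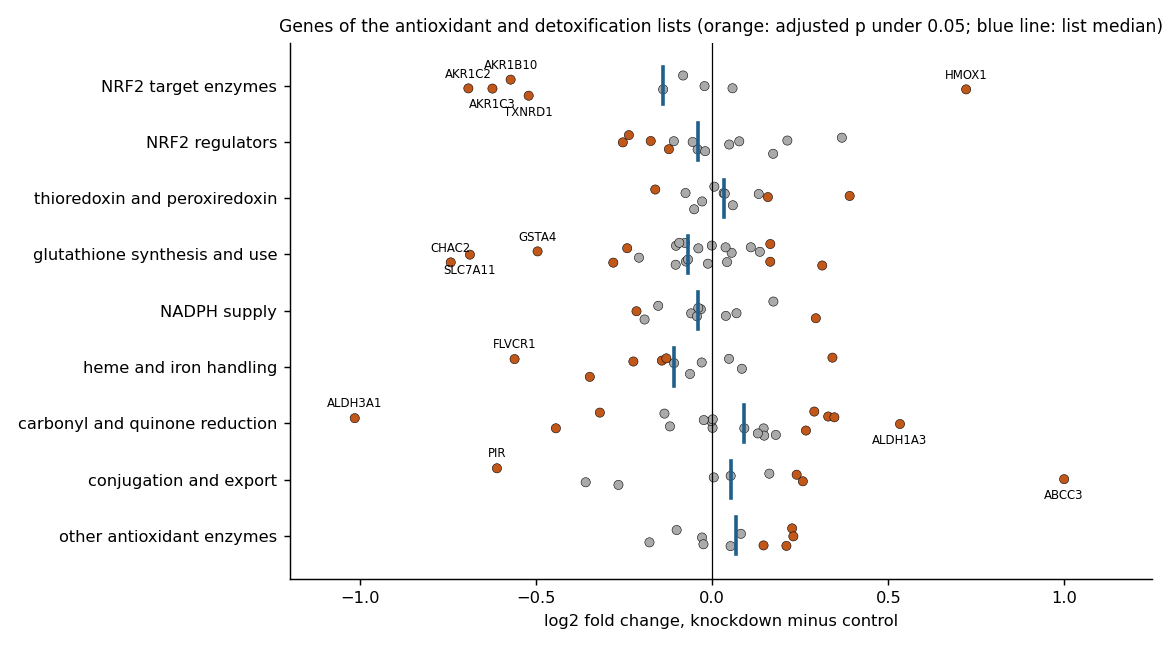
Log2 fold change, knockdown minus control, of each tested gene in the 9 lists, orange where the adjusted p was under 0.05, with a blue line at each list median. Genes moved both ways in most lists, from -1.02 for ALDH3A1 to 1.00 for ABCC3, and the list medians lie between -0.14 and 0.09.

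In conjugation and export 3 of 9 genes were called higher and 1 lower. ABCC3, a transporter of glucuronides and glutathione conjugates, read 9.82 and 9.81 in knockdown and 8.78 and 8.85 in controls on the log2 scale. It rose by 1.00 ± 0.07 (SE), or 2.00-fold (limma adjusted p = 2.04e-07), the 55th largest rise of all genes. PIR, which encodes pirin, a nuclear redox protein, fell by 0.61 (adjusted p = 5.58e-05). ABCC4 gave 0.26 and UGDH, which makes UDP-glucuronic acid, gave 0.24 (adjusted p = 0.00944 and 0.0124). The ABCC4 call ended without siTARBP2-2 or siControl-2 (up to 0.0869) and the UGDH call without siTARBP2-1 or siControl-2 (up to 0.135).

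Of the other antioxidant enzymes 4 of 10 were called higher and 0 lower by limma, and 4 had an unadjusted p under 0.05. Over all genes 17.0% were called higher and 17.1% lower, and 4950 of 11268 had an unadjusted p under 0.05. The methionine sulfoxide reductases MSRA and MSRB3 gave 0.23 and 0.21, the selenoprotein SELENOW gave 0.23 and the mitochondrial superoxide dismutase SOD2 gave 0.15 (adjusted p = 0.0132, 0.0160, 0.0149 and 0.0356). No call held without each of the arrays in turn. Those of MSRA and SELENOW ended without siTARBP2-1, siControl-1 or siControl-2 (up to 0.0692 and 0.0781), that of MSRB3 without siTARBP2-1 or siControl-2 (up to 0.124) and that of SOD2 without siTARBP2-2, siControl-1 or siControl-2 (up to 0.133).

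**Figure D5:**
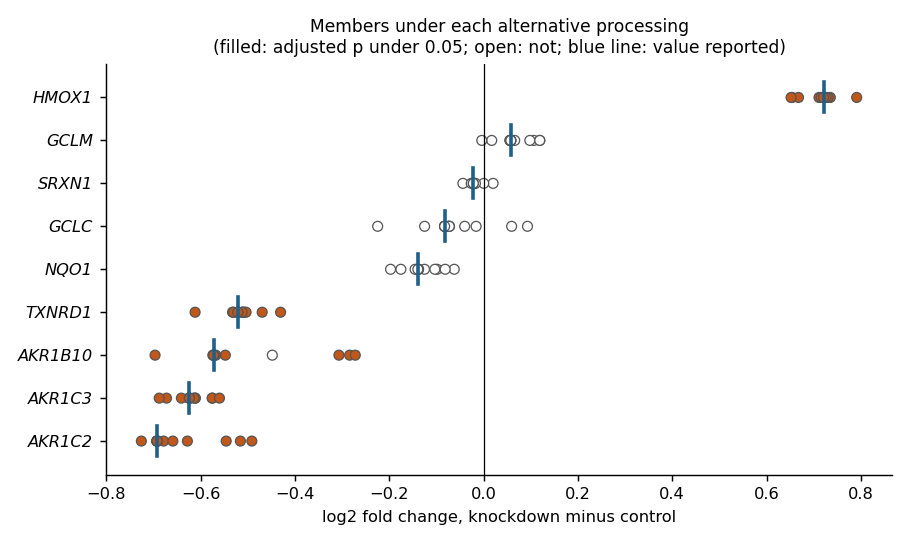
Log2 fold change of the 9 tested members under each alternative processing, filled where the adjusted p was under 0.05, with a blue line at the value reported. HMOX1 lies between 0.65 and 0.79, TXNRD1 between -0.61 and -0.43, AKR1C3 between -0.69 and -0.56 and AKR1C2 between -0.73 and -0.49, all filled. AKR1B10 has open points without siTARBP2-2, siControl-1 and siControl-2.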

How the data were processed

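The authors deposited the intensity of 47323 probes on each of 4 arrays before normalization, with a detection p-value per probe, per the file headers. They also deposited the series matrix, with normalized intensities on a linear scale, and a table with 1 log fold change per accession, taken here as log2 although the header gives no base. The submitters' processing notes name lumi. No probe annotation was given: probes were joined to accessions where the deposited fold change equals, within 1e-09, the gap between crossed group means of the series matrix values after an asinh transform with fitted constants. This joined 39314 of 39747 accessions, 6196 of them to 2 to 4 neighbouring probes. With values shifted by 1e-06 it joined 18 and 34. Symbols came from the RefSeq gene table (27730 probes). The join uses the deposited fold changes, so they are no separate support.

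Intensities were normalized with neqc (offset 16) of limma 3.58.1 in R 4.3.3 and log2-transformed. Probes with detection p under 0.01 on at least 2 of 4 arrays were kept, and the brightest probe stood for a gene. Knockdown was compared with control by lmFit and eBayes (two-sided, variance trend), calling genes at a Benjamini-Hochberg adjusted p under 0.05 over all 11268. The number of arrays limits the precision. A probe not above background on both arrays of a group has a bound. It sets the bright group's mean against the higher of the dim probe's value and the lowest detected value per array. The bound depends on the normalization and allows for no error. Named genes are the members, TARBP2, 6 regulators and the 4 smallest p in each of 8 lists. Members and lists were chosen with earlier results of these data known.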

Additional observations from a re-analysis of the deposited data

How the results depend on the processing

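In the comparison of knockdown with control, the calls of HMOX1, TXNRD1, AKR1C2 and AKR1C3 held in every alternative except the series matrix with groups as labelled, which turns them. With each siRNA set against the controls by itself, fewer members were called lower without a variance trend. The alternatives were median scaling, cyclic loess, no background correction, an offset of 50, other detection filters, the mean of probes, other variance models, the matched series matrix and each array left out. Of 29 other named genes with a call, 11 kept it in every alternative and 18 lost it when an array was left out. Same-numbered arrays deviated from their group means with a correlation of 0.0049 across genes. In the knockdown group the numbers stand for different siRNAs. A single correlation over all genes cannot show whether same-numbered arrays share an effect on some genes. With the replicate block 1919 genes were higher and 1947 lower, against 1918 and 1929, and the members stayed at 1 and 4. The block ended the calls of SQSTM1 (adjusted p = 0.0600) and TFRC (0.0571). With median scaling 1146 genes were lower, and 66.2% of calls were higher against 49.9%, with the median of all genes at 0.04. Leaving out single arrays gave 1353 to 1531 higher and 1265 to 1555 lower genes (1265 without siControl-2), and 3 to 4 lower members. With the groups of the series matrix as labelled, 4 members were higher and 1 lower, since its columns stand crosswise. For siTARBP2-1 alone 602 genes were called without a variance trend against 2795. For siTARBP2-2 alone it was 798 without a trend and 2039 with no detection filter, against 3065. Between the siRNAs 21 genes passed with median scaling, against 2 as reported (limma, 654 with an unadjusted p under 0.05). The count was 0 without a trend, with probe means, without a detection filter and when all 4 arrays had to detect the probe. With the looser motif 5 member genes held a match, against 2. Otherwise signs turned only among uncalled values: GCLC was 0.093 with the mean of probes, and with median scaling SRXN1 was 0.020, KEAP1 0.0026 and MAFF 0.062, which was 0.0060 with cyclic loess. Without single arrays GCLC ranged from -0.22 to 0.059, GCLM from -0.0040 to 0.12, SRXN1 from -0.044 to 2.2e-04, KEAP1 from -0.12 to 0.012 and MAFF from -0.11 to 0.069. Leaving out probes of accessions joined to several probes, chosen after seeing the data, removed NQO1, GCLC and GCLM and ended no call of a member. Signal over background limits AKR1B10 and AKR1C1.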
